A study of Mus musculus with 12 samples.

Results

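Lysosomal genes were followed in bone marrow-derived macrophages: 51 genes that encode lysosomal hydrolases, lysosomal membrane proteins, the receptors that deliver enzymes to the lysosome, the transcription factors of the MiT/TFE family and subunits of the vacuolar proton pump (V-ATPase). Each gene was read from the array row that carries its symbol alone, and where it had several such rows the brightest was taken. 49 of the 51 genes had such a row and all 49 passed the filter on dim values, among 22180 genes with 1 symbol and 14079 tested genes. Glb1 shared its row with another gene and Atp6v0c had no row under its symbol, so neither is described here. The marrow came from Rasgef1b fl/fl vav-icre mice (knockout), where the Vav promoter expresses Cre in the blood-forming lineage to delete Rasgef1b, or from wild-type mice, and all cells were cultured with L929-conditioned medium. The 4 groups, with 3 arrays each, were knockout cells with R848, knockout cells with saline, wild-type cells with R848 and wild-type cells with saline. R848 is a small agonist of the endosomal receptor TLR7 and was given for 4 h. No time is given for saline. No group with Cre alone was analysed here, so Cre and loss of Rasgef1b cannot be told apart, and since the source of the replicates (animals or cultures) is not labelled, p-values measure only the spread of these arrays, possibly a technical one.

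Lysosomes are acidic organelles in which proteases, glycosidases and lipases degrade material taken up by phagocytosis, endocytosis and autophagy, and in macrophages they are also where ingested microbes and dead cells are broken down. The V-ATPase acidifies them, with a cytosolic V1 sector that hydrolyses ATP and a membrane V0 sector through which protons pass. TFEB, TFE3 and MITF bind short E-box elements in the promoters of many lysosomal genes, and their entry into the nucleus is held back by the kinase mTORC1 at the lysosomal surface. The endosomal receptor that R848 activates lies in this same compartment, and cathepsins process it.

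Values are given on the log2 scale of RMA, on which 1 unit is a doubling, and levels of different genes cannot be set against each other. Within groups, correlations between arrays over the tested genes were 0.9909 to 0.9964. Rasgef1b, the deleted gene, averaged 9.14 and 8.41 in knockout cells with R848 and saline, against 9.79 and 9.12 in wild-type cells (knockout difference averaged over treatments -0.68, limma adjusted p = 0.036). In knockout cells its row thus stayed well above the dim limit of 4.31 to 4.35, and how complete the deletion was was not tested. All 8 macrophage markers examined lay above the dim limit. Their mean was 9.89 to 9.97 in knockout cells with R848, against 10.07 to 10.17 in knockout cells with saline, and 9.84 to 9.88 in wild-type cells with R848, against 9.95 to 10.06 in wild-type cells with saline. The markers did not move together: averaged over genotypes 3 rose (37.5%) and 3 fell (37.5%) with R848, against 19.3% and 30.7% of all tested genes. The median of the markers was 0.02, against -0.02 over all tested genes. Mertk, named after its values were seen, had the lowest difference (-1.85). Between genotypes none of the 8 passed, with medians of 0.08 with R848 and 0.11 with saline, against -0.02 and -0.01 over all tested genes. In knockout 7 of the 8 lay above wild type with R848 and all 8 with saline. Of all 14079 tested genes, 5807 did so with R848 and 6344 with saline. The part of these markers in the results below was not tested. Of 7 dendritic cell markers 6 passed the dim limit, and the list mean was 5.27 to 5.35 in knockout cells with R848, against 5.27 to 5.38 in knockout cells with saline, and 5.18 to 5.22 in wild-type cells with R848, against 5.08 to 5.24 in wild-type cells with saline. Of 7 osteoclast markers 5 passed, with list means between 5.39 and 5.90 over all arrays. Of the markers of T, NK and B cells 2 of 9 passed, of neutrophils 2 of 8, of mast cells and basophils 1 of 5, of fibroblasts 2 of 5, and of erythroid cells and megakaryocytes 1 of 3. Averaged over treatments, 1 of the 2 neutrophil markers was higher in knockout (0.295, limma adjusted p = 0.0375), against 0.774% of all tested genes. It was singled out after its values were seen, and it did not pass in either treatment alone. In these bulk samples fewer cells of a type and less RNA per cell cannot be told apart.

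Stretches of 100 bases of the promoters of 7 lysosomal genes are shown because they hold the E-box core to which MiT/TFE factors bind and because the values of these genes are given below. They are RefSeq sequences of build GRCm38.p6, written 5′ to 3′ on the strand of the gene, with the core CACGTG, or its extended form TCACGTGA where present, in capitals. Both forms read the same on either strand, and the longer one contains the shorter.
Mcoln1, plus strand, chr8:3500419-3500518: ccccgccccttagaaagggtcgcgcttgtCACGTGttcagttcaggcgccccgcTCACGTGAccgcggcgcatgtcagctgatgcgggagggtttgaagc
Igf2r, minus strand, chr17:12769707-12769806: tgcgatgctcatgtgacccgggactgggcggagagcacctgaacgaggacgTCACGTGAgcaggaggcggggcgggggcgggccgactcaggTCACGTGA
Atp6v1a, minus strand, chr16:44139338-44139437: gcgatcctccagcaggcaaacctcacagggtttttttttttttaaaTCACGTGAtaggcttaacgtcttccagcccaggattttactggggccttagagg
Lamp1, plus strand, chr8:13159061-13159160: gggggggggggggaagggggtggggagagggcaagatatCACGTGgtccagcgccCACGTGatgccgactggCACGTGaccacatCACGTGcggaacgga
Naglu, plus strand, chr11:101069994-101070093: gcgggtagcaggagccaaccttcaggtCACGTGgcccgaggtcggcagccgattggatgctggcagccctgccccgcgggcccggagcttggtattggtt
Atp6v0b, minus strand, chr4:117887330-117887429: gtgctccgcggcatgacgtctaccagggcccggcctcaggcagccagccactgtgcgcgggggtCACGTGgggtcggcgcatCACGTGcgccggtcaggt
Ctsl, minus strand, chr13:64370671-64370770: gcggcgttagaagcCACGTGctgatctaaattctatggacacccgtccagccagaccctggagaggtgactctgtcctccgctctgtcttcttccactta

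The Mcoln1, Igf2r, Lamp1, Naglu and Atp6v0b stretches end at the base before the annotated start. That of Atp6v1a begins 178 bases before the start and that of Ctsl begins 250 bases before it. In Lamp1 the core occurs 4 times. Over the 250 bases before each start, CACGTG was found in 13 of 53 promoters of the lysosomal genes (24.5%; 43 of the 51 genes had an entry, some with several starts), against 6.02% of all 32851 promoters in the table. TCACGTGA was found in 6 of the 53 (11.3%), against 0.785% of all promoters. These are matches of letters, and binding was not measured.

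Most of the lysosomal genes were lower with R848 in both genotypes. In knockout cells 31 of 49 fell and 6 rose, and in wild-type cells 27 of 49 fell and 4 rose (limma adjusted p under 0.05). Of all tested genes, 26% fell and 15.6% rose in knockout cells, and 23.6% fell and 14.6% rose in wild-type cells. The shares of the lysosomal genes that fell were 63.3% in knockout and 55.1% in wild type, and those that rose 12.2% and 8.16%. The median difference was -0.24 in knockout and -0.25 in wild type, against -0.03 and -0.02 over all tested genes.

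The changes were small. No lysosomal gene changed at least 2-fold in either genotype, while 3.86% of all tested genes fell and 3.86% rose at least that much in knockout, and 3.39% and 3.83% in wild type. Averaged over genotypes, again 0 of 49 changed that much, against 3.52% of all tested genes that fell and 3.89% that rose. The differences ran from -0.93 to 0.89 in knockout cells and from -0.92 to 0.97 in wild-type cells. Averaged over genotypes, 16.33% of the 49 genes lay at or below -0.5, against 12.38% of all tested genes. At or below -0.8 lay 6.12% of the 49, against 5.84% of all tested genes. For 32 of the 49 genes in knockout all R848 arrays lay below all saline arrays, and for 35 in wild type. Of all tested genes, 29.3% and 28.6% separated in this way. The R848 arrays lay above all saline arrays for 6 genes in each genotype, against 19.6% of all tested genes in knockout and 19.5% in wild type.

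**Figure D1:**
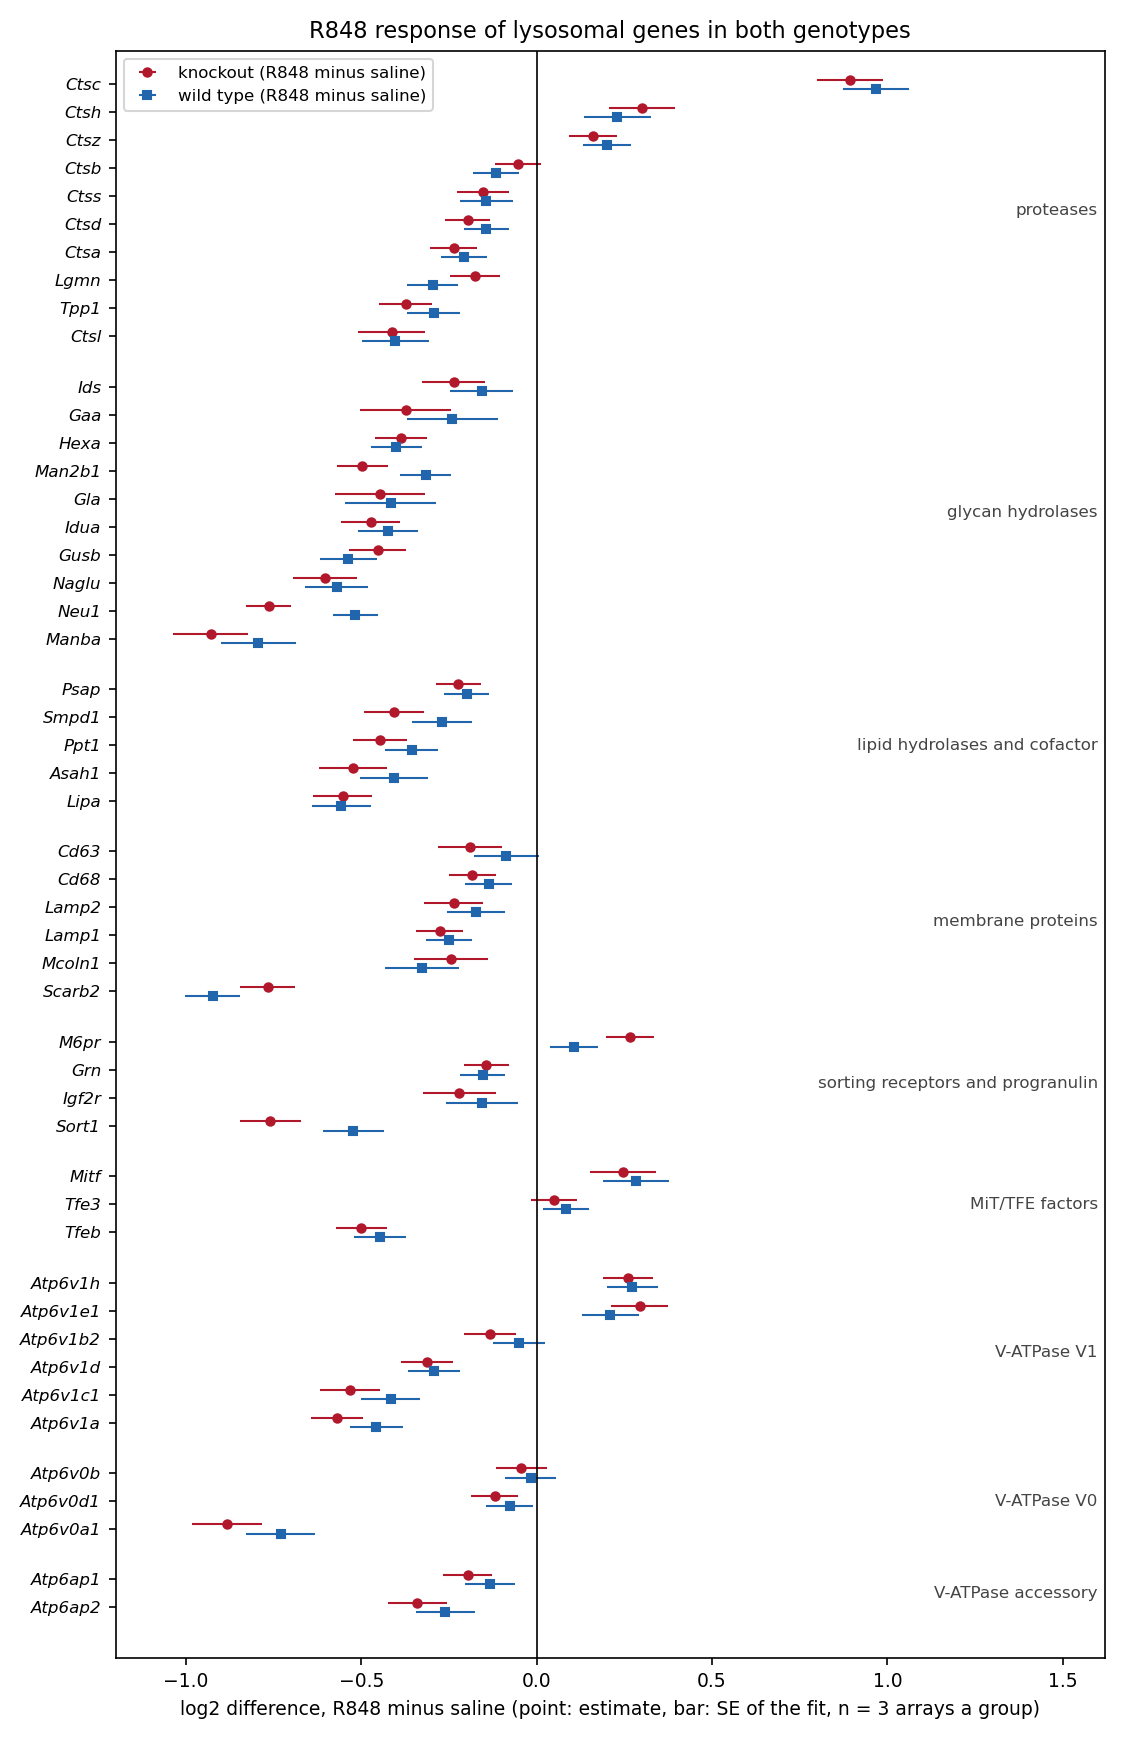
The plot gives the log2 difference between R848 and saline for each of the 49 genes, with circles for knockout and squares for wild type, bars for the SE of the fit, and genes grouped by role. All 49 genes have the same sign in both genotypes, 41 below 0 and 8 above. Of all 14079 tested genes, which are not plotted, 7588 are below 0 in knockout and 7621 in wild type. The lowest differences are those of Manba in knockout (-0.93) and Scarb2 in wild type (-0.92), and the highest those of Ctsc (0.89 in knockout and 0.97 in wild type).

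No glycan hydrolase rose. These exoglycosidases and sulfatases remove sugars and sulfate from glycoproteins, glycolipids and glycosaminoglycans. All 10 with a row fell in knockout cells and 8 of 10 fell in wild-type cells, with medians of -0.46 and -0.42. The shares that fell were 100% and 80%, against 26% and 23.6% of all tested genes. Manba, the beta-mannosidase that cleaves the last mannose link of N-glycans, read 7.03, 6.72 and 7.18 in knockout cells with R848, against 8.0, 7.82 and 7.90 with saline. In wild-type cells Manba read 7.16, 7.16 and 6.91 with R848, against 7.87, 7.89 and 7.85 with saline. The R848 and saline arrays did not overlap in either genotype. The Manba difference was -0.93 ± 0.11 in knockout (SE, limma adjusted p = 5.14e-06) and -0.79 ± 0.11 in wild type (2.81e-05), and averaged over genotypes the intensity with R848 was 0.55 of that with saline.

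Neu1 encodes sialidase 1, which removes terminal sialic acids. Neu1 read 7.28, 7.30 and 7.35 in knockout cells with R848, against 8.07, 8.06 and 8.09 with saline. In wild-type cells it read 7.37, 7.39 and 7.42 with R848, against 7.85, 7.94 and 7.94 with saline. Its spread within groups was small, and the differences of -0.76 ± 0.06 in knockout and -0.52 ± 0.06 in wild type (SE) had adjusted p of 1.77e-07 and 1.17e-05 by limma. Naglu, the enzyme of heparan sulfate breakdown whose promoter stretch is given above, read 8.46, 8.58 and 8.55 in knockout cells with R848, against 8.95, 9.30 and 9.15 with saline. Its wild-type values were 8.39, 8.53 and 8.41 with R848, against 8.96, 8.97 and 9.11 with saline. Naglu thus fell without overlap in both genotypes, by 0.60 in knockout and by 0.57 in wild type. Man2b1, the lysosomal alpha-mannosidase, read 9.97, 9.92 and 9.98 in knockout cells with R848, against 10.54, 10.41 and 10.41 with saline, and 9.93, 9.75 and 9.81 in wild-type cells with R848, against 10.10, 10.19 and 10.15 with saline. It fell by 0.50 in knockout and by 0.32 in wild type. The other 6 members lay between -0.47 and -0.24 in knockout and between -0.54 and -0.16 in wild type. Among them Gusb (beta-glucuronidase), Idua (alpha-iduronidase), Hexa (a beta-hexosaminidase subunit) and Gla (alpha-galactosidase A) fell in both genotypes. Gaa, the acid alpha-glucosidase of glycogen, and Ids, the iduronate sulfatase, fell in knockout (-0.37 and -0.24), with wild-type differences of -0.24 and -0.16 that did not pass the threshold.

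All 5 genes of lysosomal lipid breakdown fell in both genotypes, with medians of -0.45 in knockout and -0.36 in wild type. Over all tested genes 26% fell in knockout and 23.6% in wild type. Lipa, the acid lipase that frees cholesterol from lipoprotein esters, read 11.18, 11.52 and 11.40 in knockout cells with R848, against 11.86, 11.97 and 11.93 with saline. In wild-type cells Lipa read 11.27, 11.37 and 11.36 with R848, against 11.90, 11.84 and 11.93 with saline. Its differences, -0.55 and -0.56, differed by 0.003 between genotypes. Asah1, the acid ceramidase, read 9.44, 9.69 and 9.56 in knockout cells with R848, against 10.19, 10.13 and 9.94 with saline. Its wild-type values were 9.52, 9.75 and 9.61 with R848, against 9.91, 10.03 and 10.16 with saline. No array overlapped between treatments, and Asah1 fell by 0.52 in knockout and by 0.41 in wild type. Ppt1, the thioesterase that removes palmitate from proteins, read 9.14, 9.09 and 9.29 in knockout cells with R848, against 9.62, 9.60 and 9.64 with saline, and 9.19, 9.24 and 9.27 in wild-type cells with R848, against 9.56, 9.51 and 9.70 with saline. Ppt1 fell by 0.45 in knockout and by 0.36 in wild type. The acid sphingomyelinase gene Smpd1 fell in knockout and wild type (-0.41 and -0.27), as did Psap, the precursor of the saposins that present lipids to these enzymes (-0.22 and -0.20). A second, dimmer row of Smpd1 differed by -0.15 and -0.12.

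Proteases did not move together. Of 10, 4 fell (40%) and 2 rose (20%) in each genotype, with medians of -0.17 in knockout and -0.14 in wild type. The shares of all tested genes that fell and rose were 26% and 15.6% in knockout, and 23.6% and 14.6% in wild type. Ctsc, the dipeptidyl peptidase that activates serine proteases of immune cells, had the largest increase of all 49 genes. Ctsc read 10.13, 10.19 and 10.33 in knockout cells with R848, against 9.38, 9.31 and 9.28 with saline. In wild-type cells it read 10.00, 10.24 and 10.25 with R848, against 9.04, 9.21 and 9.34 with saline. Every R848 array lay above every saline array, with differences of 0.89 ± 0.09 in knockout and 0.97 ± 0.09 in wild type (SE, limma adjusted p = 1.99e-06 and 9.53e-07) and a ratio of 1.91 averaged over genotypes.

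Ctsl, an endopeptidase of the papain family, went the other way. It read 10.30, 10.61 and 10.50 in knockout cells with R848, against 10.89, 11.0 and 10.76 with saline. Wild-type Ctsl read 10.46, 10.56 and 10.41 with R848, against 10.93, 10.75 and 10.96 with saline. Ctsl fell by 0.41 in knockout and by 0.40 in wild type (limma adjusted p = 0.00255 and 0.0033). Tpp1, a serine protease that removes tripeptides, read 10.88, 10.79 and 10.77 in knockout cells with R848, against 11.28, 11.20 and 11.08 with saline. Its wild-type values were 10.96, 10.80 and 10.83 with R848, against 11.19, 11.17 and 11.11 with saline. Tpp1 fell in knockout and wild type (-0.37 and -0.29). Ctsh, an aminopeptidase of the papain family, read 8.81, 8.74 and 8.96 in knockout cells with R848, against 8.53, 8.56 and 8.52 with saline, and 8.35, 8.58 and 8.52 in wild-type cells with R848, against 8.06, 8.31 and 8.39 with saline. Ctsh rose by 0.30 in knockout (adjusted p = 0.0193), while its wild-type arrays overlapped and the difference of 0.23 did not pass (0.0715). It did pass in wild type after cyclic loess between arrays (adjusted p = 0.0243), with the replicate number as a block (0.0444), and without wild-type saline replicate 3 (0.0349) or wild-type R848 replicate 1 (0.0361). In knockout the Ctsh call ended without R848 replicate 3 (0.0869). The other 6 proteases lay between -0.24 and 0.16 in knockout and between -0.30 and 0.20 in wild type. Of these, Ctsa, cathepsin A, fell in both (-0.24 in knockout and -0.21 in wild type), and Ctsd, the aspartic protease cathepsin D, fell in knockout (-0.20), with a wild-type value of -0.14 that did not pass. Ctsz rose in wild type (0.20) and Lgmn, the asparaginyl endopeptidase, fell there (-0.30), with knockout values of 0.16 and -0.18 that did not pass. Ctsb and Ctss, major cathepsins of macrophages, had differences of -0.05 and -0.15 in knockout and -0.12 and -0.14 in wild type, none past the threshold.

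**Figure D2:**
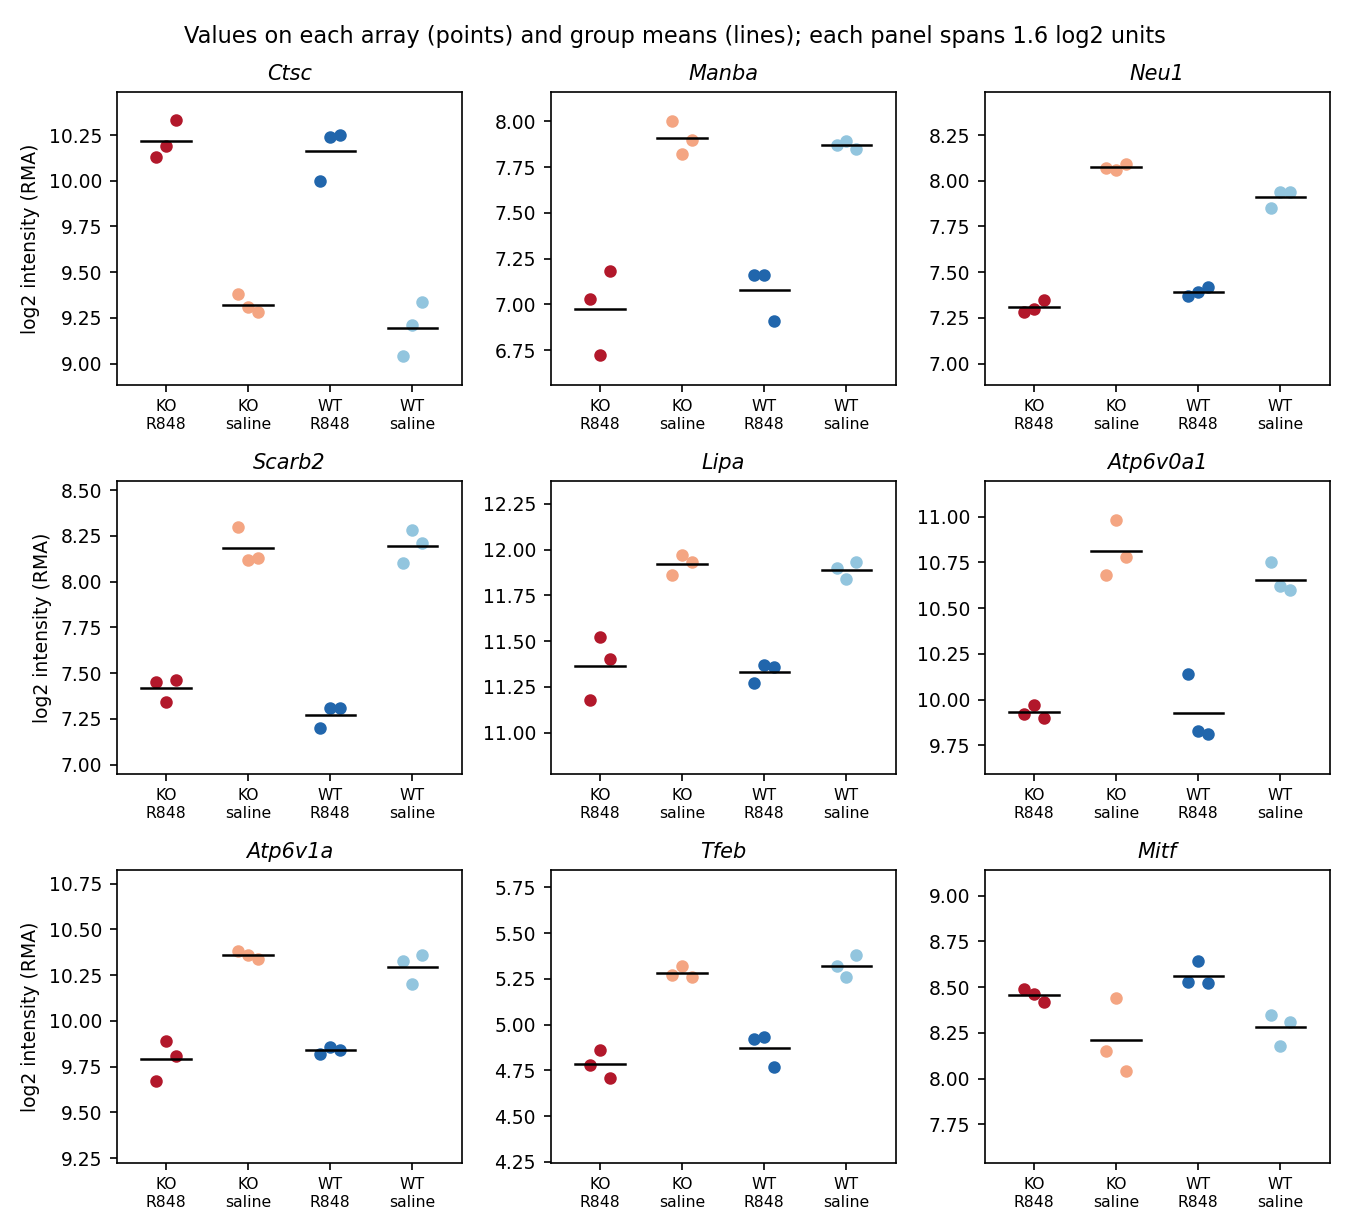
Each panel plots the log2 intensity of 1 gene on all 12 arrays, as points, with the group mean as a line, for knockout (KO) and wild type (WT) with R848 and with saline. Every panel spans 1.6 log2 units, so distances can be compared between panels but heights cannot. The R848 arrays lie apart from the saline arrays within each genotype, except for Mitf in knockout.

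All 6 lysosomal membrane proteins had differences below 0. In knockout 4 of 6 fell (66.7%, against 26% of all tested genes), and in wild type 3 of 6 (50%, against 23.6%). Scarb2 encodes LIMP-2, the receptor that carries glucocerebrosidase to the lysosome. Scarb2 read 7.45, 7.34 and 7.46 in knockout cells with R848, against 8.30, 8.12 and 8.13 with saline. In wild-type cells it read 7.20, 7.31 and 7.31 with R848, against 8.10, 8.28 and 8.21 with saline. Both genotypes separated fully, and the differences were -0.77 ± 0.08 in knockout and -0.92 ± 0.08 in wild type (SE, limma adjusted p = 1.49e-06 and 2.24e-07), with the intensity with R848 at 0.557 of that with saline on average. Lamp1, a heavily glycosylated protein of the limiting membrane, read 11.05, 10.97 and 10.98 in knockout cells with R848, against 11.32, 11.28 and 11.23 with saline. Wild-type Lamp1 read 11.04, 10.97 and 10.94 with R848, against 11.18, 11.26 and 11.26 with saline. Lamp1, with 4 E-box cores in its promoter stretch, fell by 0.28 in knockout and by 0.25 in wild type. Mcoln1, the calcium channel TRPML1, read 8.25, 8.21 and 8.32 in knockout cells with R848, against 8.22, 8.63 and 8.66 with saline, and 8.35, 8.28 and 8.25 in wild-type cells with R848, against 8.58, 8.75 and 8.53 with saline. Its wild-type difference of -0.33 passed (adjusted p = 0.023). In knockout the arrays overlapped and -0.24 did not (0.0805), though without knockout saline replicate 1, the low saline array, it was -0.39 (0.00253). The wild-type call ended without saline replicate 2 or R848 replicates 2 or 3 (adjusted p 0.105, 0.0618 and 0.0728). Lamp2, Cd63, a tetraspanin, and Cd68, a glycoprotein of macrophage lysosomes, lay between -0.24 and -0.18 in knockout, where Lamp2 and Cd68 passed, and between -0.17 and -0.09 in wild type, where none did.

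Among the sorting receptors the largest change was in Sort1, sortilin, which brings several enzymes and cofactors from the Golgi to the lysosome. Sort1 read 5.91, 6.01 and 6.04 in knockout cells with R848, against 6.90, 6.80 and 6.54 with saline. Its wild-type values were 6.13, 6.17 and 6.20 with R848, against 6.65, 6.71 and 6.71 with saline. Sort1 fell without overlap, by 0.76 in knockout and by 0.52 in wild type (limma adjusted p = 4.59e-06 and 0.000189). A second row of Sort1, with a mean of 5.50 against 6.40 for the row used, differed by -0.08 and 0.02. M6pr, the small mannose 6-phosphate receptor, read 10.45, 10.42 and 10.47 in knockout cells with R848, against 10.18 on all 3 saline arrays. In wild-type cells it read 10.5, 10.54 and 10.46 with R848, against 10.40, 10.30 and 10.48 with saline. M6pr rose in knockout (0.27, adjusted p = 0.00519), and its wild-type arrays overlapped (0.11, adjusted p = 0.253). Igf2r, the large mannose 6-phosphate receptor, read 8.37, 7.97 and 8.19 in knockout cells with R848, against 8.58, 8.26 and 8.35 with saline, and 8.41, 8.27 and 8.31 in wild-type cells with R848, against 8.46, 8.52 and 8.48 with saline. Neither difference passed (-0.22, adjusted p = 0.104, and -0.16, adjusted p = 0.267), although without knockout R848 replicate 1 the first was -0.32 (0.0256). Grn, which encodes progranulin, a protein that travels with sortilin, differed by -0.14 in knockout and -0.15 in wild type, neither past the threshold.

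The MiT/TFE factors themselves split 3 ways. Tfeb read 4.78, 4.86 and 4.71 in knockout cells with R848, against 5.27, 5.32 and 5.26 with saline. In wild-type cells it read 4.92, 4.93 and 4.77 with R848, against 5.32, 5.26 and 5.38 with saline. Tfeb fell without overlap, by 0.50 in knockout and by 0.45 in wild type (limma adjusted p = 5.45e-05 and 0.00017), at intensities not far above the dim limit of 4.31 to 4.35. Mitf read 8.49, 8.46 and 8.42 in knockout cells with R848, against 8.15, 8.44 and 8.04 with saline. Wild-type Mitf read 8.53, 8.64 and 8.52 with R848, against 8.35, 8.18 and 8.31 with saline. Mitf rose by 0.28 in wild type (adjusted p = 0.0274) and by 0.25 in knockout, where the arrays overlapped and the adjusted p was 0.0492. The knockout call ended after median centring (0.0995), with no filter (0.0628), in a fit of the 6 arrays compared (0.0937) and without any array except knockout saline replicate 2 (0.0521 to 0.213). The wild-type call ended without wild-type saline or R848 replicate 2 (0.113 and 0.104). Averaged over genotypes Mitf rose by 0.27 ± 0.07 (SE, adjusted p = 0.00374), a call that held in every alternative with no minimum change. Tfe3 read 9.09, 8.97 and 9.07 in knockout cells with R848, against 8.96, 9.02 and 9.0 with saline, and 9.03, 9.09 and 9.04 in wild-type cells with R848, against 8.98, 9.0 and 8.93 with saline. Its differences of 0.05 and 0.08 did not pass (adjusted p = 0.593 and 0.37). Tfec, the fourth gene of this family and the one most restricted to myeloid cells, is not among the 51 genes but rose more than any of them. Tfec read 9.07, 8.66 and 8.95 in knockout cells with R848, against 6.95, 6.56 and 6.40 with saline, and 9.28, 9.26 and 9.13 in wild-type cells with R848, against 7.03, 6.74 and 7.01 with saline, a rise of 2.26 in knockout and 2.30 in wild type.

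V-ATPase subunits did not all move one way. Of 11 subunits and accessory proteins measured, 6 fell (54.5%) and 2 rose (18.2%) in knockout, and 5 fell (45.5%) and 1 rose (9.09%) in wild type. The shares of all tested genes that fell and rose were 26% and 15.6% in knockout, and 23.6% and 14.6% in wild type. Atp6v0a1, an isoform of the large V0 subunit that lines the proton path, changed most. Atp6v0a1 read 9.92, 9.97 and 9.90 in knockout cells with R848, against 10.68, 10.98 and 10.78 with saline. In wild-type cells it read 10.14, 9.83 and 9.81 with R848, against 10.75, 10.62 and 10.60 with saline. It fell without overlap, by 0.88 in knockout and by 0.73 in wild type (limma adjusted p = 3.69e-06 and 2.81e-05), to 0.572 of the saline intensity on average.

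The other V0 subunits with a row did not pass in either genotype. Atp6v0b, of the proteolipid ring, read 10.54, 10.70 and 10.62 in knockout cells with R848, against 10.76, 10.59 and 10.64 with saline, and 10.68, 10.70 and 10.78 in wild-type cells with R848, against 10.74, 10.74 and 10.73 with saline. Its arrays overlapped in both genotypes (-0.04 and -0.02), and its promoter stretch holds 2 E-box cores. Atp6v0d1, the subunit that joins V0 to the central stalk, read 9.46, 9.45 and 9.56 in knockout cells with R848, against 9.67, 9.57 and 9.59 with saline, and 9.54, 9.61 and 9.59 in wild-type cells with R848, against 9.66, 9.64 and 9.67 with saline. The groups did not overlap, but -0.12 and -0.08 did not pass (adjusted p = 0.171 and 0.418).

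In the V1 sector 3 of 6 subunits fell in each genotype (50%, against 26% of all tested genes in knockout and 23.6% in wild type). Atp6v1a, the catalytic subunit, read 9.67, 9.89 and 9.81 in knockout cells with R848, against 10.38, 10.36 and 10.34 with saline. Its wild-type values were 9.82, 9.86 and 9.84 with R848, against 10.33, 10.20 and 10.36 with saline. Atp6v1a fell without overlap, by 0.57 in knockout and by 0.46 in wild type (limma adjusted p = 1.84e-05 and 0.000164). Atp6v1c1, a stalk subunit that takes part in the assembly of V1 with V0, read 9.02, 9.21 and 9.15 in knockout cells with R848, against 9.67, 9.78 and 9.53 with saline, and 9.21, 9.32 and 9.24 in wild-type cells with R848, against 9.66, 9.58 and 9.78 with saline. Atp6v1d, of the central rotor, read 8.07, 8.15 and 8.11 in knockout cells with R848, against 8.50, 8.47 and 8.30 with saline, and 8.2, 8.26 and 8.22 in wild-type cells with R848, against 8.50, 8.46 and 8.60 with saline. Both fell in knockout and wild type, Atp6v1c1 with -0.53 and -0.42 and Atp6v1d with -0.31 and -0.29. The regulatory subunit gene Atp6v1h rose in both (0.26 and 0.27), the stator gene Atp6v1e1 rose in knockout (0.29) with a wild-type difference of 0.21 that did not pass (adjusted p = 0.0536), and Atp6v1b2, the partner of Atp6v1a in the ATP-hydrolysing ring, differed by -0.13 and -0.05 without passing. Its second row differed by 0.05 in both. Of the accessory proteins, Atp6ap2, the prorenin receptor, read 9.56, 9.75 and 9.69 in knockout cells with R848, against 10.03, 9.99 and 10.00 with saline, and 9.62, 9.79 and 9.67 in wild-type cells with R848, against 9.87, 9.87 and 10.12 with saline. It fell by 0.34 in knockout and by 0.26 in wild type, where the call ended without saline replicate 3 or R848 replicates 1 or 3 (adjusted p 0.13, 0.0916 and 0.0722). Atp6ap1, which helps to assemble V0, read 10.28, 10.35 and 10.43 in knockout cells with R848, against 10.51, 10.54 and 10.60 with saline, and 10.31, 10.46 and 10.40 in wild-type cells with R848, against 10.51, 10.51 and 10.55 with saline. It passed in knockout (-0.20, adjusted p = 0.0363) and not in wild type (-0.13, 0.162), and the knockout call ended after cyclic loess (-0.11, 0.208), in a fit of the 6 arrays compared (0.0799) and without knockout saline replicates 2 or 3 or knockout R848 replicates 1 or 2 (0.0708 to 0.131).

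Averaged over genotypes, 36 of 49 genes fell (73.5%) and 7 rose (14.3%), against 30.7% and 19.3% of all tested genes. The 7 were Ctsc, Ctsh, Ctsz, M6pr, Mitf, Atp6v1e1 and Atp6v1h. The 6 that did not pass were Ctsb, Cd63, Tfe3, Atp6v1b2, Atp6v0b and Atp6v0d1. Igf2r was the weakest of the 36 (-0.19, limma adjusted p = 0.043), a call lost with no filter, after cyclic loess and without 1 array in 9 of 12 cases. Among the 12 tested genes with CACGTG in the 250 bases before a start, 11 fell and 0 rose, with a median of -0.27 and a range of -0.59 to -0.03. Among the 29 with a promoter entry and no such core in those bases, 22 fell and 4 rose, with a median of -0.30 and a range of -0.86 to 0.93. The 3 largest decreases, in Manba, Scarb2 and Atp6v0a1, were in the second class, which is the larger. No test was made between these classes.

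**Figure D3:**
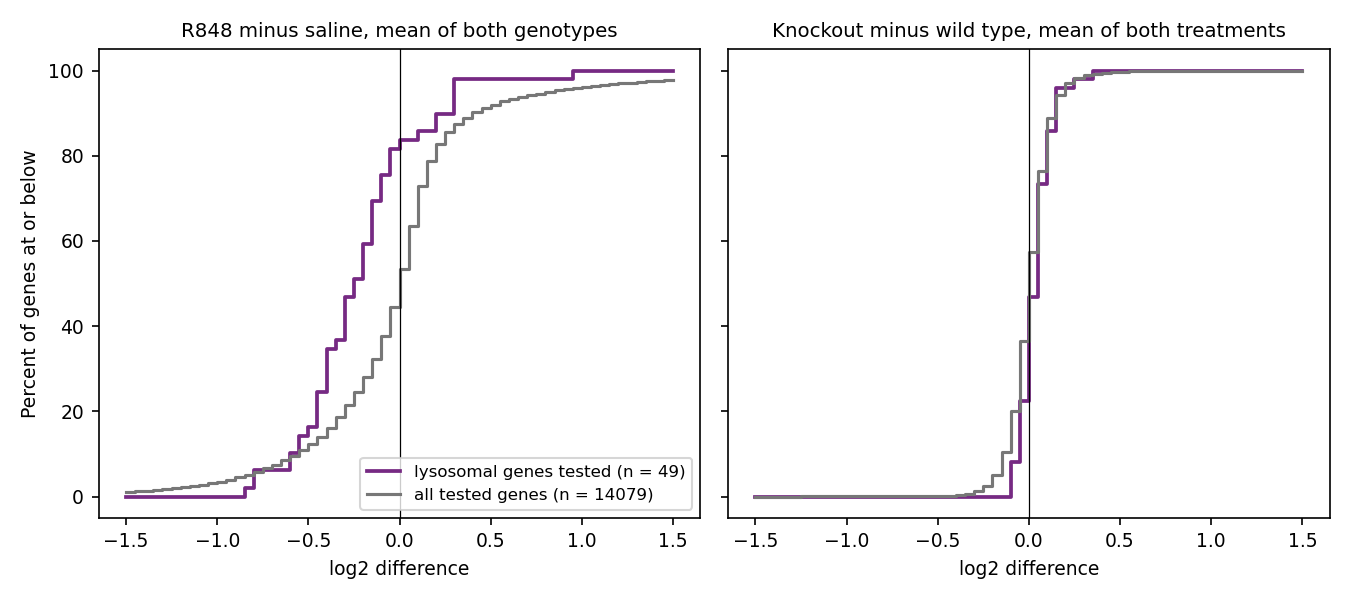
The curves give the percent of genes at or below each log2 difference, in steps of 0.05, for the 49 lysosomal genes and for all 14079 tested genes, with R848 minus saline on the left and knockout minus wild type on the right. The lysosomal curve for R848 lies to the left of that of all genes through its middle, with medians of -0.26 and -0.02, and ends short of the largest changes on either side. For genotype the medians are 0.01 and -0.02.

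Many genes of the same pathway outside the 51 also fell, and some changed much more. Of all tested genes, 26% fell and 15.6% rose in knockout, and 23.6% fell and 14.6% rose in wild type. Of 27 further lysosomal enzymes tested, 16 fell (59.3%) and 3 rose (11.1%) in knockout. In wild type 13 of these enzymes fell (48.1%) and 3 rose (11.1%). Sgsh, the heparan N-sulfatase, fell most (-2.25 in knockout and -1.87 in wild type), ahead of the lysosomal phospholipase gene Pla2g15 (-1.45 and -1.32) and the galactocerebrosidase gene Galc (-1.13 and -0.84). Acp5, tartrate-resistant acid phosphatase, rose by 1.55 and 1.38, and the acid phosphatase gene Acp2 by 0.63 and 0.84. Gnptab, which makes the mannose 6-phosphate tag, rose in knockout (0.48), and its wild-type difference of 0.28 did not pass (limma adjusted p = 0.0782). Of 24 further membrane proteins and transporters, 13 fell (54.2%) and 4 rose (16.7%) in knockout. In wild type 12 of them fell (50%) and 6 rose (25%). The two-pore channel gene Tpcn1 (-1.62 and -1.36), the nucleoside transporter gene Slc29a3 (-1.61 and -1.35) and the sialic acid exporter gene Slc17a5 (-1.33 and -1.2) fell most. Slc15a3, a peptide and histidine transporter (1.82 and 1.61), Mcoln2, a relative of Mcoln1 (1.71 and 1.65), and the chloride exchanger gene Clcn7 (0.57 and 0.51) rose most.

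Among 14 further V-ATPase subunits and assembly factors, 2 fell (14.3%) and 2 rose (14.3%) in knockout, against 26% and 15.6% of all tested genes. In wild type 2 fell (14.3%) and 1 rose (7.14%), against 23.6% and 14.6%. The 2 that fell were the V0 isoform Atp6v0d2 (-1.06 and -0.97), known from osteoclasts, and Wdr7 (-1.11 and -0.94), while Dmxl2 rose (0.74 and 0.84). Atp6v1b1 rose in knockout (0.23, against 0.09 in wild type, which did not pass), with group means between 4.31 and 4.54, close to the dim limit. Of 18 genes of the Rag GTPases, Ragulator, mTORC1 and their regulators, 11 fell (61.1%) and 2 rose (11.1%) in knockout. There 26% of all tested genes fell and 15.6% rose. In wild type 10 of the 18 fell (55.6%) and 1 rose (5.56%), against 23.6% and 14.6% of all tested genes. Rragd (-1.12 and -0.92) and the folliculin partners Fnip2 (-0.98 and -0.58) and Fnip1 (-0.86 and -0.59) fell most, and Tfec, named above and listed here, rose most, ahead of Mtor (0.35 in knockout, and 0.12 in wild type, which did not pass). In the autophagy list 17 of 28 fell (60.7%) and 3 rose (10.7%) in knockout, and 15 fell (53.6%) and 3 rose (10.7%) in wild type. Plekhm1 (-1.68 and -1.46), Uvrag (-1.2 and -1.22) and the cargo receptor gene Nbr1 (-1.24 and -1.08) fell most, whereas Sqstm1, the cargo receptor p62, rose (1.02 and 1.08), with Atg9a (0.64 and 0.81) and Atg5 (0.43 and 0.45). Of the cathepsin inhibitors, Cst3, cystatin C, fell (-0.38 and -0.25) and Cst7, cystatin F, rose (0.35 and 0.38), and 2 of the 4 tested did not pass.

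Whether the genotype changes the response of these genes was asked by the interaction, the R848 difference in knockout minus that in wild type. By limma 0 of 49 genes passed in either direction, against 0.0071% of all tested genes in each. An unadjusted limma p under 0.05 was found for 694 of all 14079 tested genes, and among the 49 for 1 gene, Neu1. Its interaction was -0.25, with a 95% interval of -0.44 to -0.05 (unadjusted p = 0.0165, adjusted p = 0.965). The estimates of the 49 genes ran from -0.25 to 0.16 and their 95% intervals reached from -0.53, in Gaa, to 0.40, in Mcoln1, so differences of that size between the genotypes' responses lie within these intervals. The interaction was below 0 for 38 of 49 genes, and for 7333 of all 14079 tested genes. The median of the 49 was -0.04, against -0.01 over all tested genes. This direction depended on the scaling: the median of the 49 was 0.01 after cyclic loess. Of the 31 genes that fell in knockout and the 27 that fell in wild type, 25 were shared, 80.6% and 92.6% of each list, and no gene was called in opposite directions. This overlap was not counted over all tested genes.

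Few lysosomal genes differed between the genotypes. With saline 0 of 49 passed in either direction by limma, where 0.142% of all tested genes were higher and 0.192% lower. With R848 likewise 0 passed, where 0.0568% of all tested genes were higher and 0.0781% lower. An unadjusted limma p under 0.05 was found for 4 of 49 with saline and for 2 with R848. Among all 14079 tested genes it was found for 1767 with saline and for 1230 with R848. Knockout and wild-type arrays with saline did not overlap for 6 genes that were higher and 1 that was lower in knockout, against 6.65% and 9.43% of all tested genes. With R848 they did not overlap for 3 that were higher and 5 that were lower, against 5.35% and 8.46%. No lysosomal gene differed 2-fold between genotypes, against 0.0355% of all tested genes higher and 0% lower with saline, 0.0284% and 0.0213% with R848, and 0.0426% and 0.0142% averaged over treatments. Averaged over treatments, 2 of 49 were higher in knockout (4.08%) and 0 lower, against 0.774% and 1.01% of all tested genes. These were Ctsh and Man2b1, whose arrays are given above. Ctsh was higher in knockout by 0.32 ± 0.07 (SE, adjusted p = 0.0298), with all knockout arrays above all wild-type arrays in each treatment and differences of 0.35 with R848 and 0.28 with saline. Man2b1 was higher by 0.22 ± 0.05 (adjusted p = 0.0472), without overlap with saline (0.31) and with overlap with R848 (0.13). The Man2b1 call ended with no filter (adjusted p = 0.0509), after median centring (0.0821) and without any 1 array except wild-type R848 replicate 1 (0.0550 to 0.139). The Ctsh call ended without any of the wild-type R848 arrays, knockout saline replicates 1 or 2, or knockout R848 replicate 3 (0.0537 to 0.0727).

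**Figure D4:**
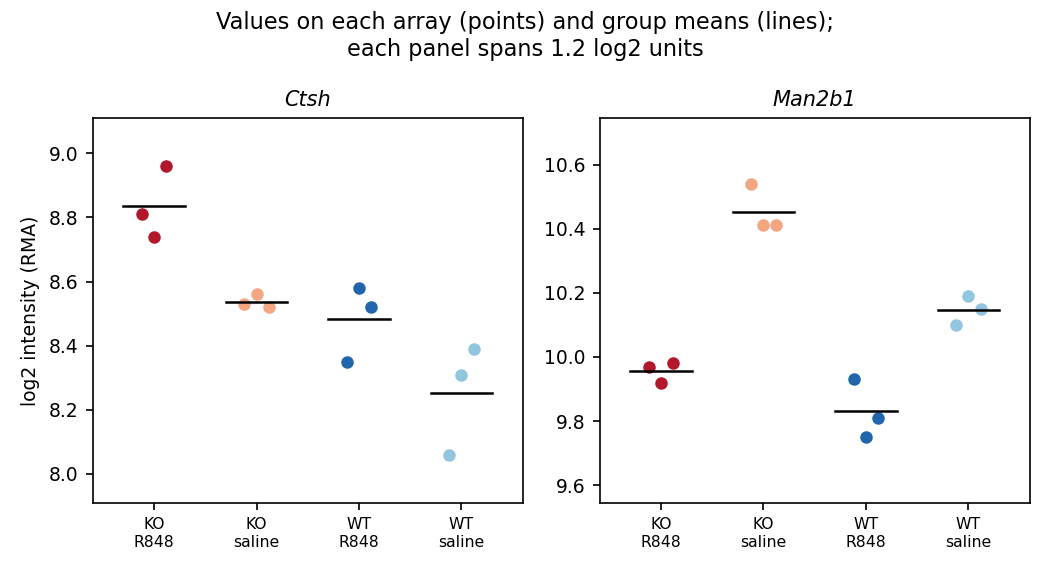
The panels plot the log2 intensity of Ctsh and Man2b1 on each array, as points, with group means as lines, for knockout (KO) and wild type (WT) with R848 and with saline. Knockout arrays of Ctsh lie above the wild-type arrays of the same treatment, and those of Man2b1 do so with saline, while with R848 the array at 9.93 in wild type lies above the lowest of knockout at 9.92.

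Of the 5 genes with an unadjusted p under 0.05 averaged over treatments, the other 3 did not pass after adjustment. In this comparison 2269 of all 14079 tested genes had an unadjusted limma p under 0.05. M6pr was at -0.13 averaged over treatments (limma adjusted p = 0.182), with knockout saline arrays at 10.18 each, below the 3 wild-type saline arrays, and -0.05 with R848. Lgmn stood at 0.15 (0.154) and Lamp2 at 0.15 (0.235). Outside the 51 genes, Sgsh was higher in knockout with saline by 0.62 ± 0.11 (SE, adjusted p = 0.0317), with 8.70, 8.35 and 8.39 in knockout against 7.81, 7.97 and 7.81 in wild type. With R848 Sgsh read 6.30, 6.05 and 6.33 in knockout, against 6.05, 6.10 and 5.84 in wild type, which overlapped (0.23, adjusted p = 0.581). Averaged over treatments Sgsh was higher by 0.42 (limma adjusted p = 0.0178). It was the only one of the 115 further pathway genes tested that passed in a genotype comparison. Of all tested genes, 0.142% were higher and 0.192% lower in knockout with saline, and 0.774% and 1.01% averaged over treatments.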

How the data were processed

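Expression was measured on 12 Affymetrix Mouse Gene 2.1 ST arrays, 3 in each of 4 groups named by the sample titles. The deposited values are log2 intensities made by the authors with Affymetrix Expression Console and RMA, per the submitters' processing notes, with versions and settings not given in the sources used here. RMA equalizes the arrays' distributions, so a change in total RNA per cell cannot be seen. Of 34472 rows, 23521 had 1 gene symbol in the platform table, 1814 several and 9137 none. A gene with several rows was read from its brightest row. A gene was tested if it exceeded the 40th percentile of rows with 1 symbol on at least 3 arrays.

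A linear model of the 4 group means, without covariates, was fitted to all 12 arrays with limma 3.58.1 (lmFit and eBayes, R 4.3.3) and was tested on simulated data. Benjamini-Hochberg adjustment ran over all 14079 tested genes of each contrast, and 0.05 was the threshold. The 51 genes and the other lists were chosen with earlier results of these data known. Values on every array are given for the MiT/TFE factors, for lysosomal genes past the threshold in a genotype contrast or the interaction, and for the 3 genes of each role with the largest R848 change averaged over genotypes. Of each other list, the 3 largest increases and decreases past the threshold are named; the array values of Tfec and Sgsh, and Mertk and Dcstamp as a whole, were chosen after their values were seen. Promoters came from a RefSeq table of build GRCm38.p6.

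Residuals of same-numbered arrays correlated at 0.27, 0.17 and 0.28 between the knockout groups and at 0.25, -0.06 and 0.23 between the wild-type groups. Between knockout and wild type they correlated at 0.12, -0.12 and 0.14 with saline and at 0.33, -0.004 and 0.10 with R848. Only the knockout groups passed the minimum of 0.1 for every number, and the labels state no pairing. The alternatives were no filter, a stricter filter, robust spread with an intensity trend, median centring, cyclic loess, only the arrays compared, a replicate block, a minimum of 2-fold, the mean of a gene's rows, and leaving out each array. The number of arrays limits the precision. Strip and scan date were not used here.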

Additional observations from a re-analysis of the deposited data

Results flagged for a closer look

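Neu1 was singled out because its knockout and wild-type arrays did not overlap in either treatment and lay opposite ways in the 2 treatments. How many of all tested genes did so was not counted. With R848 all knockout arrays (7.28, 7.30 and 7.35) lay below all wild-type arrays (7.37, 7.39 and 7.42), a difference of -0.08. With saline all knockout arrays (8.07, 8.06 and 8.09) lay above all wild-type arrays (7.85, 7.94 and 7.94), a difference of 0.16. The test of the difference between them, the interaction, gave -0.25 and did not pass over all tested genes (limma adjusted p = 0.965). No outlier test was made, since each group holds 3 arrays.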

How the results depend on the processing

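The 27 lower and 4 higher genes in wild type, the 31 and 6 in knockout and the 36 and 7 averaged over genotypes stayed within 1.5 times of these counts with an intensity trend and robust spread, no filter or a stricter filter, median centring, cyclic loess, only the arrays compared, the replicate block, and the mean of all rows of a gene. With the stricter filter the background shares rose to 34.5% lower in knockout and 31.6% in wild type, beside 31 and 27 lysosomal genes. After cyclic loess 23 fell in knockout and 27 in wild type, against 22.6% and 21.3% of all genes. With a minimum of 2-fold all 6 R848 counts and the genotype count were 0, as no lysosomal gene reached that size. Without 1 array, the counts lay between 23 and 27 lower and between 2 and 6 higher in wild type, 25 and 31 lower and 4 and 6 higher in knockout, and 34 and 36 lower and 7 higher averaged over genotypes. The 2 higher in wild type came without saline replicate 2 or R848 replicate 2. The 2 genes higher in knockout averaged over treatments were 1 with no filter, 1 after median centring and 0 or 1 without 1 array. The counts of 0 by genotype within a treatment and in the interaction remained 0 in each alternative. With the replicate number as a block the members called were 27 lower and 5 higher in wild type, 31 and 6 in knockout, 2 higher in knockout averaged over treatments and 0 in the interaction. Ctsh with R848 in wild type then passed (0.23, adjusted p = 0.0444), and the other 111 of the values tested for the 28 lysosomal genes with array values kept their call. Genes outside the 51, such as Sgsh, Tfec and Dcstamp, were not compared across the alternatives. Of 112 values of these 28 genes, 98 kept their side of the threshold in all alternatives with no minimum change. Among values past the threshold, 0 reversed direction. Differences near 0 that did not pass could change sign, as did Atp6v0b with R848 averaged over genotypes (-0.053 to 0.025 in the alternatives that kept all arrays). Tfe3 averaged over genotypes passed after cyclic loess (0.12, adjusted p = 0.0387), and Atp6ap1 did not (-0.11, 0.0645). Dim genes such as Tfeb are limited by their signal over background.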

Other observations

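Markers of osteoclasts, cells that share the lysosomal and V-ATPase program of macrophages, were followed because L929-conditioned medium supplies macrophage colony-stimulating factor. Dcstamp, which encodes a protein needed for cell fusion, was lower in knockout by 0.90 ± 0.18 averaged over treatments (SE, limma adjusted p = 0.0245). Dcstamp read 6.17, 5.68 and 5.56 in knockout cells with R848, against 7.22, 6.54 and 6.27 in wild-type cells with R848, and 6.39, 5.73 and 5.72 in knockout cells with saline, against 7.33, 6.61 and 6.66 in wild-type cells with saline. Replicate 1 was the highest array in each of the 4 groups. The other osteoclast markers tested (Acp5, Ctsk, Ocstamp and Atp6v0d2) did not pass in the genotype contrast averaged over treatments, and Calcr and Oscar did not pass the filter on dim values.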
